A study of Mus musculus with 6 samples.

Results

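Cytl1 encodes a small secreted protein. It was followed in single-cell RNA of mouse aorta as 1 gene of 27998 in the count tables, across cell types set by marker genes, within endothelial cells by their arterial and capillary markers, and across samples and diets. The gene was chosen by its measured level in these samples, high in arterial endothelium and in cartilage, so its levels across cell types and marker counts are given as a description, without a test. The study holds 6 samples of digested aorta from C57B/6J mice aged 18 weeks, 3 labelled control, which the series describes as a normal diet (control 1 to 3), and 3 labelled high-fat diet (high-fat diet 1 to 3). No transgene or gene deletion is named for either group, and the labels do not say whether a sample is 1 aorta or a pool, so p-values measure the spread between these samples. Cell suspensions were loaded for 3′ capture in droplets, and a unique molecular identifier (UMI) on each captured transcript kept its copies from being counted more than once.

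The Cytl1 protein has the predicted fold of a helical cytokine. The gene was first described in blood progenitor cells that carry CD34, and cartilage is its best known site of expression, where chondrocytes secrete the protein. The chemokine receptor Ccr2 has been proposed to bind it. Arteries and capillaries are lined by endothelial cells with distinct programmes. Gja5, a gap junction protein, and Bmx, a tyrosine kinase, mark arterial endothelium, as does the gastrokine gene Gkn3 in the mouse, while Gpihbp1 holds lipoprotein lipase on the capillary wall.

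In mm10 with the GENCODE vM21 annotation, Cytl1 (ENSMUSG00000062329) lies on the plus strand at chr5:37735519-37739820. It has 2 annotated transcripts, and no other annotated gene overlaps it. The coding transcript has its first exon at chr5:37735519-37735709, which holds a 5′ UTR of 29 bases, and its last at chr5:37739212-37739820, which holds a 3′ UTR of 528 bases. The nearest genes are Stk32b, 18347 bases upstream on the minus strand, the long non-coding RNA Gm43763, 67485 bases downstream, and Msx1, 80664 bases downstream on the minus strand. The 250 bases before the RefSeq start (chr5:37735269-37735518, plus strand, GRCm38.p6) are shown because the same gene was high in 2 cell types, endothelium and chondrocytes, that use different members of the Sox family of transcription factors. Capitals mark the motifs found.

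Cytl1 promoter: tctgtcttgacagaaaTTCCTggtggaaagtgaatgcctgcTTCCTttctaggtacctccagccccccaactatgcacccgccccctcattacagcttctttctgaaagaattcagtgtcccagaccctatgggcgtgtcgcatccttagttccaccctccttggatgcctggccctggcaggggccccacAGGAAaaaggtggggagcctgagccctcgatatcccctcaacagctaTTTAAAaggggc

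The window was searched on both strands. AGGAA, the core bound by ETS factors together with 1 flanking base, occurred 3 times, 1 of them on the plus strand and 2 as its reverse complement, and 60.3% of the 32851 RefSeq mouse promoter windows of this length held it. TTTAAA, which resembles the box bound by the basal transcription machinery, occurred once, 12 bases before the start, against 12.1% of windows. ACAAT, a Sox core, had no match, against 27.7% of windows. These matches describe the letters of the window and do not show binding.

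The deposited tables held 6623 to 18138 cells per sample and 41388034 to 83886418 UMIs, with medians of 3856 to 5955 UMIs per cell, and 58034 of 62838 cells were kept after filters on genes, mitochondrial reads and doublets. A cell was placed in 1 of 16 marker-gated types where at least 3 of that type's 6 markers had a UMI and led every other type by 2. Cytl1 itself was a gate marker of none. Levels are CPM, the UMIs of the gene per 1000000 UMIs in the summed counts of a type in a sample. They are not scaled by gene length, since 3′ tags count transcript ends. Free RNA in droplets gives every cell a low level of abundant transcripts, so the Cytl1 level of B cells, T cells and macrophages together was taken as the background of each library. It was 579.6, 83.8 and 22.3 CPM in controls 1 to 3 and 75.8, 107 and 45.1 CPM in high-fat diet 1 to 3. Control 1 stood apart from the other 5 libraries, with the highest background and 77.0% of its cells outside every gate (19.3 to 44.6% in the others). Libraries shared 26 to 127 cell barcodes with their well suffix, which was at most 2.81% of the smaller library when the suffix was ignored.

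Cytl1 was highest in the chondrocyte gate and next in the arterial endothelial gate. Chondrocyte-gated cells carry Col2a1, Acan, the type IX collagens and Matn3 of hyaline cartilage, and 114 of the cells kept met the gate. They held 37895 CPM in control 2 (100 cells) and 26928 CPM in high-fat diet 2 (8 cells), the only samples with at least 5 such cells, a mean of 32411 CPM. Control 1 and control 3 had 3 cells each, at 14724 and 29108 CPM, and high-fat diet 1 and 3 had none. By UMIs, Cytl1 was the second most abundant gene of this gate and made 3.67% of its UMIs. All 100 control 2 cells had a Cytl1 UMI after thinning to 1000 UMIs per cell (95% Wilson interval 96.3 to 100%).

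Arterial endothelial cells were those of the endothelial gate with a UMI of Gja5, Bmx or Gkn3 and none of Gpihbp1, 236 cells in all. Their Cytl1 level was 4825 CPM in control 1, 8940 CPM in control 2 and 4375 CPM in control 3. In the high-fat diet samples it was 6610, 6974 and 9199 CPM. The mean was 6821 ± 2009 CPM (SD, n = 6), which was 8.33 to 204 times the background of the same library, with the smallest ratio in control 1. Every sample of the arterial gate lay above every sample of every other gate but the chondrocytes. Cytl1 ranked sixth by UMIs in this gate, at 0.777% of all UMIs. Against capillary cells its difference was 5.88 on the log2(CPM + 10) scale, on a measure that had chosen the gene. Bmx, Gkn3 and Gja5 were at 0 in capillary cells because the gate requires it, so their differences depend on the added 10 and give no order against Cytl1. Below Cytl1 on that scale stood Sfrp1, a secreted Wnt antagonist, at 4.92, and Vcam1, the leukocyte adhesion molecule named in the series title, at 4.14. Sfrp1 was named there after its values were seen.

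**Figure D1:**
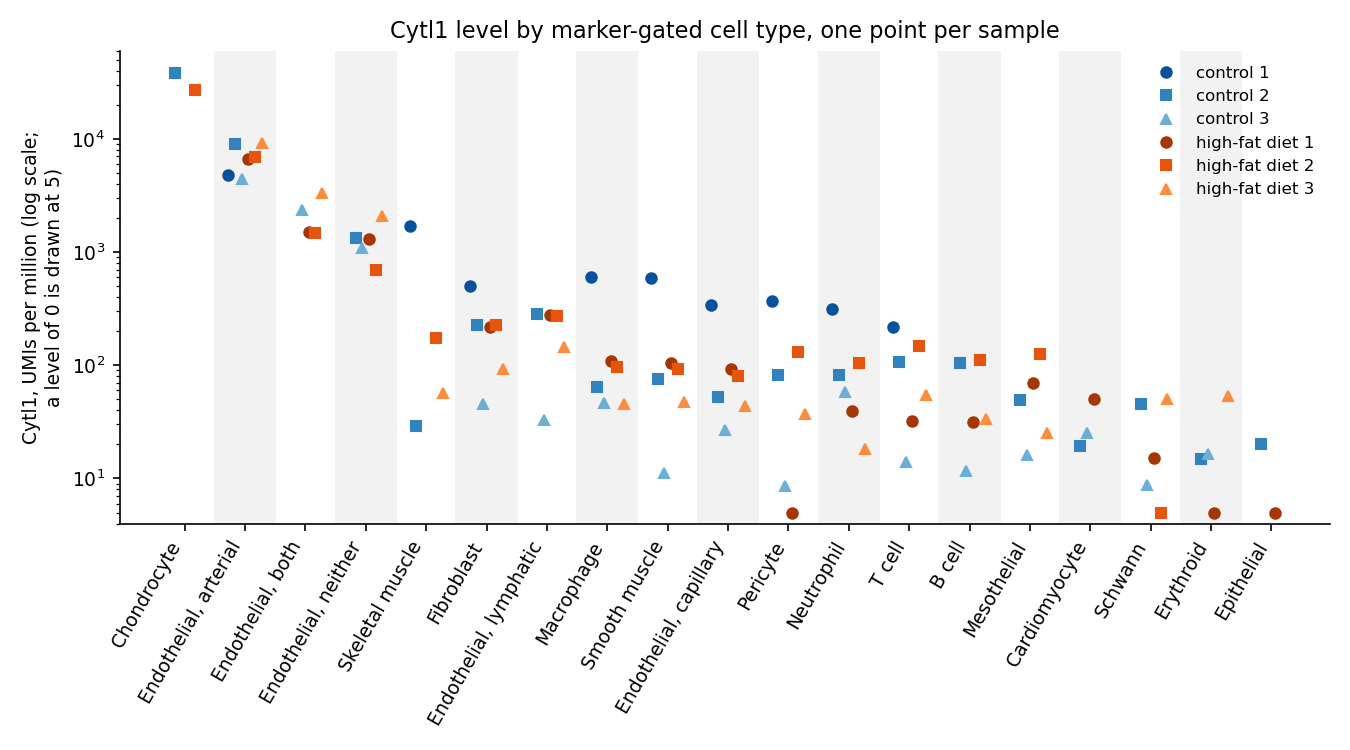
Cytl1 level in CPM (log scale) for each marker-gated cell type, with 1 point per sample that held at least 5 cells of the type, blue for control and orange for high-fat diet. The chondrocyte points sit at 26928 and 37895, the 6 arterial points between 4375 and 9199, and the capillary points between 26.8 and 342. Outside the arterial gate, control 1 is the highest point of each type in which it has a point, and many types have none from it.

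The other endothelial groups followed in order. Cells with both kinds of marker held 2171 ± 885 CPM (SD, n = 4) and cells with neither 1299 ± 501 CPM (SD, n = 5), and these 2 neighbours overlapped in their samples. Lymphatic endothelial cells held 202 ± 111 CPM (SD, n = 5), 1.48 to 3.64 times background. Capillary cells, with Gpihbp1 and no arterial marker, held 106 ± 118 CPM (SD, n = 6), from 26.8 CPM in control 3 to 342 CPM in control 1, which was 0.591 to 1.22 times background. Capillary cells thus stood at the level of the pooled blood cells of their own libraries, within that range. The pool was not uniform. In control 3 B cells held 11.7, T cells 13.9 and macrophages 46.7 CPM. In high-fat diet 1 the same gates held 31.7, 32.3 and 108 CPM. Capillary cells stood above B and T cells in both of these libraries, below them in control 2 and high-fat diet 2, and between them in the others.

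The gates outside endothelium and cartilage held lower levels than the arterial and chondrocyte gates. Skeletal muscle cells held 493 ± 816 CPM (SD, n = 4), a mean that rested on control 1 at 1713 CPM, with the other 3 samples from 29.2 to 173.5 CPM. Fibroblasts held 505, 225 and 45.5 CPM in the controls and 216, 225 and 91.9 CPM on the high-fat diet, 0.871 to 2.86 times background. Smooth muscle cells held 154 ± 218 CPM (SD, n = 6) at 0.499 to 1.38 times background. Macrophages held 161 ± 220 CPM (SD, n = 6), at 0.761 to 2.10 times the background of which they are a part. Fibroblasts, lymphatic endothelium, macrophages, smooth muscle and capillaries, neighbours in the order of the means, overlapped in CPM over samples. That spread includes the differences in background between libraries. Compared within each library, fibroblasts stood above capillary cells, which held 342, 52.8 and 26.8 CPM in controls 1 to 3. On the high-fat diet capillary cells held 92.1, 79.7 and 43.3 CPM. Relative to background, lymphatic cells (1.48 to 3.64 times) did not overlap with capillary cells (0.591 to 1.22 times). No test was run on these levels.

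To compare shares of cells at 1 depth, every cell was thinned to 1000 UMIs. In arterial cells 89.3% ± 9.59 (SD, n = 6) then had a Cytl1 UMI, from 72.7% in control 3 (95% Wilson interval 58.2 to 83.7%) to 100% of 7 cells in control 1. Macrophages, which served as the type expected to lack the gene, had a UMI in 44.3% of cells in control 1 and in 2.25 to 12.2% in the other 5 samples, so a single UMI in control 1 is background. Cells with at least 3 Cytl1 UMIs of 1000, called high here, were 178 of 236 arterial cells (75.4%) and 1 of 1136 capillary cells. None of 4027 B cells was high, which allows a share of up to 0.0745%. The limit of 3 UMIs was set after these values were seen, and intervals cover counting error only.

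Within endothelial cells, Cytl1 rose with the number of arterial markers detected, which is the pattern for which the gene was chosen. The summed level was 153 CPM in 1243 cells with no arterial marker, 2910 CPM in 126 cells with 1, 6647 CPM in 89 cells with 2 and 9684 CPM in 85 cells with 3. The thinned share of positive cells was 7.40%, 54.0%, 89.9% and 95.3% in the same order. Cells with 3 markers were also deeper, with a median of 5810 UMIs against 2945 for cells with none. Thinning put the detection of Cytl1 at equal depth in these shares. The markers were counted before thinning, so depth still enters the number of markers detected in a cell. Sample by sample, cells with no marker lay between 106 and 320 CPM and cells with 1 between 1239 and 6165 CPM, with no overlap. Cells with 2 markers lay between 5462 and 7707 CPM over 4 samples, and overlapped with control 2 of the group below. Single markers gave similar splits, with 9161 CPM in cells with Gkn3 against 531 CPM without, 7482 against 555 CPM for Gja5, and 7003 against 383 CPM for Bmx.

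**Figure D2:**
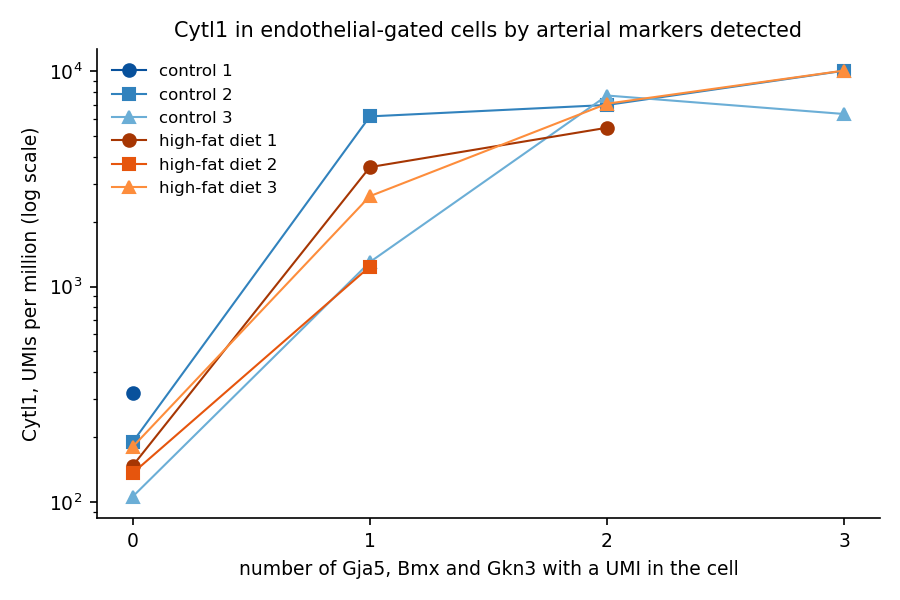
Cytl1 level (CPM, log scale) in endothelial-gated cells other than lymphatic ones by how many of Gja5, Bmx and Gkn3 had a UMI, 1 line per sample, points with at least 5 cells. Levels stand between 106 and 320 with no marker and between 5462 and 7707 with 2 markers, and control 1 has enough cells only for the first point.

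The capillary marker ran the other way. Cells with no Gpihbp1 UMI held 6212 CPM, cells with 1 held 2134 CPM and cells with 2 or more held 81.0 CPM. Where both kinds of marker were considered, 1072 cells with 2 or more Gpihbp1 UMIs and no arterial marker held 50.7 CPM, and 107 cells with none of the 4 markers held 1325 CPM, of which 17.8% were high.

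An unsupervised grouping gave the same 2 places. All genes, Cytl1 included, could enter this clustering, so its clusters are not independent of the gene. Of 36 clusters, the highest level was in a cluster of 948 cells led by Chad, Col2a1 and Ucma (cartilage-gene cluster), at 16055 ± 5295 CPM (SD, n = 5), and the next in a cluster of 692 cells led by Vwf, Gkn3, Bmx and Gja5 (arterial cluster). The arterial cluster held 4295, 7193 and 2408 CPM in controls 1 to 3 and 5962, 4798 and 8545 CPM in high-fat diet 1 to 3, and 426 of its cells (61.6%) were high. Of 1261 high cells among 58032 thinned cells, 33.8% lay in the arterial cluster, 32.0% in the cartilage-gene cluster and 21.3% in a fibroblast cluster led by Meox1, Tbx20, Mmp3 and Prg4. That fibroblast cluster of 4780 cells held 521 ± 184 CPM (SD, n = 6), with a median of 6.89 times background and a level over 2 times background in 5 of 6 samples. Another fibroblast cluster, led by F3 and Sfrp2 (1593 cells), held 356 ± 226 CPM (SD, n = 6) and was over 2 times background in 4 samples. Marker gates had missed 669 of the high cells (53.1%), 255 of them in the cartilage-gene cluster and 200 in the arterial cluster.

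In the cartilage-gene cluster the level rose with the number of the 6 cartilage markers detected. It was 743 CPM in 398 cells with none, 2169 CPM with 1, 9899 CPM with 2, 16649 CPM with 3, 28039 CPM with 4, 45839 CPM with 5 and 32290 CPM in the 30 cells with all 6. Cells with no marker already stood between 398 and 894 CPM over 5 samples. The highest sub-cluster, made without Cytl1, held 49996 CPM in 111 cells, 103 of them from control 2. Its leading genes included Col10a1, a collagen of hypertrophic cartilage, and Fgfr3, a growth factor receptor of the growth plate. A sub-cluster with Col2a1, Col11a2 and Matn3 among its leading genes held 14539 CPM in 169 cells, 120 of them from control 2. A sub-cluster led by Mmp13, Bglap and Ibsp, genes of mineralising matrix, held 482 CPM in 80 cells, 64 of them from control 2. The order of these sub-clusters thus rests mostly on 1 library. Another, with 155 of 169 cells from control 1, held 22850 CPM and was led by skeletal muscle genes such as Tnnc2 and Mylpf, so it is given no cell type.

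**Figure D3:**
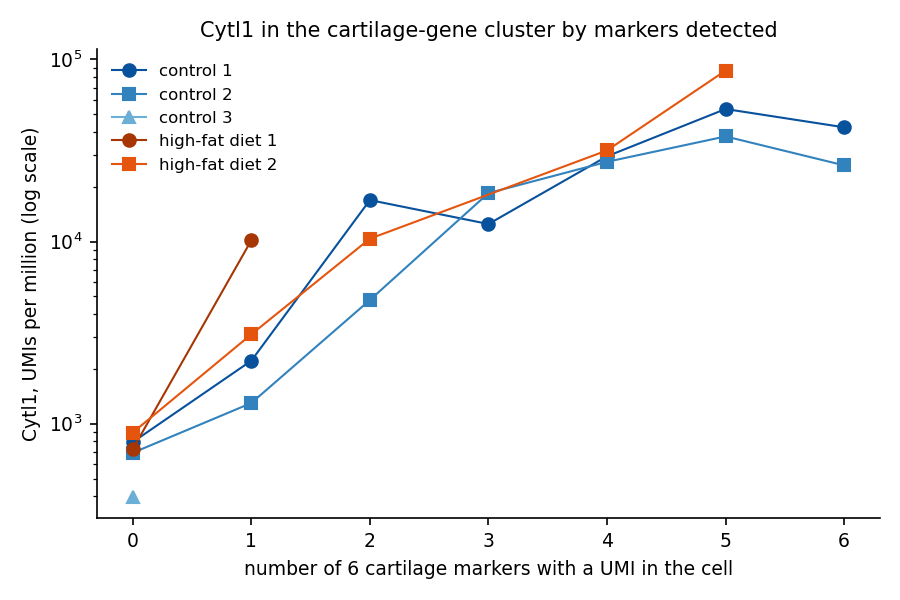
Cytl1 level (CPM, log scale) in cells of the cartilage-gene cluster by how many of Col2a1, Acan, Col9a1, Col9a2, Col9a3 and Matn3 had a UMI, 1 line per sample, points with at least 5 cells. Levels climb from 398 to 894 with no marker to 27405 to 31644 with 4 markers, and control 1, control 2 and high-fat diet 2 carry most of the points.

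Cartilage cells were few and unevenly spread over the libraries. The cartilage-gene cluster had 170, 602 and 17 cells in controls 1 to 3 and 38, 117 and 4 in high-fat diet 1 to 3, and it held from 0.423% of a library's Cytl1 UMIs in high-fat diet 3 to 76.6% in control 2. The arterial cluster had 73 to 147 cells in each sample and held 4.14% (control 1) to 71.7% (high-fat diet 3) of the same UMIs. Within control 2, 563 of the 602 cells came from 1 of its 2 wells, where the background was 131 CPM against 33.0 CPM in the other well, and the arterial gate held 10540 CPM there against 7939 CPM. Wells of other samples differed as well. In high-fat diet 1 the 2 wells had backgrounds of 35.4 and 166 CPM, with 4877 and 9191 CPM in the arterial gate. In control 3 the order was the other way, with backgrounds of 2.56 and 23.0 CPM and arterial levels of 6487 and 3456 CPM. The part of cartilage cells in the background was not tested. Arterial cells carried few UMIs of the 6 cartilage gate markers. The 236 arterial cells held 8664 Cytl1 UMIs and 4 UMIs of the 6 cartilage markers together, all 4 in control 2. By library, the cartilage-gene cluster held 2.44 to 19.3 Cytl1 UMIs for every cartilage marker UMI in the 5 libraries where it had such a UMI, and the blood cell gates held 6.36 (control 2) to 135 (high-fat diet 1).

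Of the cartilage genes beyond the gate, the 6 highest in chondrocytes were Chad, 3110079O15Rik, Ucma, Col11a1, Lect1 and Fmod. Chad, a matrix leucine-rich repeat protein, stood at 5056 CPM in chondrocytes and 8.25 CPM in arterial cells, and Fmod at 1365 against 15.7 CPM. The other 4 stood at 1382 to 2779 CPM in chondrocytes and at no more than 1.39 CPM in arterial cells. Cytl1 differed from all 6 in its arterial level, which was 6821 CPM. The Sox factors, named here after their values were seen, divided by cell type. Sox9, the master regulator of cartilage, held 886 CPM in chondrocytes and 2.62 CPM in arterial cells. Sox17, Sox18 and Sox7 of endothelium held 160, 57.2 and 49.5 CPM in arterial cells and none in chondrocytes, and in capillary cells, where Cytl1 was at background, they held 199, 106 and 90.4 CPM. Ccr2, the proposed receptor, stood at 137 CPM in macrophages and 229 CPM in T cells, 1.85 CPM in arterial cells and 6.73 CPM in chondrocytes. Of the neighbours on chromosome 5, Stk32b held 60.3 CPM in chondrocytes and 5.81 CPM in arterial cells, and Msx1 held 11.5 and 34.3 CPM.

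Other genes were ranked by how closely they followed Cytl1. Over 18 cell classes the gene most like Cytl1 was Fgfr3 (Pearson r = 0.91 on log2(CPM + 1)), at 250 CPM in chondrocytes, 67.7 CPM in arterial and 11.96 CPM in capillary cells. It was followed by Plagl1, a zinc finger transcription factor (r = 0.90), with 55.6, 63.2 and 1.08 CPM, and by Crispld1 (r = 0.85). Thbs1, Ifitm10, A2m, Foxc2, Cthrc1, Chst11, Coch, Col8a1, Foxc1, Trpv4, Optn and Dlx5 made up the 15 nearest, with r from 0.83 down to 0.76. Foxc1 and Foxc2, forkhead factors of vascular and skeletal development, held 157 and 54.0 CPM in arterial cells and 175 and 119 CPM in chondrocytes. The highest levels among the 15 were 157 CPM in arterial cells (Foxc1) and 468 CPM in chondrocytes (Col8a1), far below those of Cytl1. Classes share libraries and background, so these coefficients describe the order of classes and carry no p-value.

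Endothelial cells with a Cytl1 UMI were then compared with those without, each cell thinned to 1000 UMIs, counts summed per sample and Cytl1 left out (347 positive and 1503 negative cells, 6 samples, edgeR quasi-likelihood test with the sample as a block). Vcam1, Bmp4 and Lox were among the genes higher in positive cells and Kdr and Rbp7 among those lower. Capillary transcripts were still present in positive cells, with Gpihbp1, used by the selection rule, at 739 CPM against 2831 CPM in negative cells. At a Benjamini-Hochberg adjusted p under 0.05, 369 of 1502 genes tested were called (24.6%), 179 higher (11.9%) and 190 lower (12.6%) in positive cells. Since Cytl1 was chosen for its arterial level, arterial and capillary genes here are not independent evidence. Control 1 had a positive share in endothelial cells (43.2%) like that of its macrophages, and without it 432 genes were called.

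Vcam1 changed most. In negative and positive cells it held 0 and 166 CPM in control 1, 62.3 and 1115 CPM in control 2, and 24.8 and 571 CPM in control 3. On the high-fat diet it held 26.6 and 770, 40.0 and 723, and 20.9 and 1028 CPM in samples 1 to 3. Every positive sum was above every negative one, with a log2 fold change of 4.69 ± 0.25 (SE, adjusted p = 2.2e-16, edgeR). Ptprj, a receptor phosphatase, rose by 4.35 ± 0.39, Bmp4, a morphogen, by 3.92 ± 0.26, and Lox, which cross-links collagen and elastin, by 3.36 ± 0.42 on the log2 scale, each in 6 of 6 samples. Ctsh, Cpe, Clu, Vwf and Cgnl1 rose by 3.02 to 3.44, and the arterial marker Gja5, used by the selection rule, by 4.65. The genes that fell most were Rbp7 (log2 fold change -2.59 ± 0.34), Col4a2 (-2.48), Mmrn1 (-2.47), Rgcc (-2.36), Rsad2 (-2.35), Cxcl12 (-2.34), Kdr (-2.32), Cd300lg (-2.30), Ablim3 (-2.28) and Gja1 (-2.23), lower in 6 of 6 samples in each case. Kdr is the main receptor for VEGF. Klf2, the flow-responsive factor of the series title, held 1309 ± 703 CPM in negative and 1258 ± 651 CPM in positive cells (SD, n = 6), with a log2 fold change of 0.01 ± 0.15 (adjusted p = 0.97, edgeR).

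By list, 14 of 15 capillary genes beyond the rule were tested, of which none was called higher and 12 were called lower, with a median log2 fold change of -2.06 against -0.03 over all genes tested. For these and the next lists, 11.9% of all genes tested were called higher and 12.6% lower. Of 30 arterial genes 16 were tested, 9 called higher and 4 lower, with a median of 0.92. Bmp4 and Fbln5, an elastic fibre protein (1.68 ± 0.22), were among those that rose, and Cxcl12, Slc6a6 (-1.88 ± 0.31) and Sox17 (-0.70 ± 0.25) among those that fell. Of 10 venous genes 7 were tested, 3 called higher (Vcam1, Vwf and Il6st) and 2 lower, and of 8 shear-responsive genes 6 were tested, 2 higher (Vcam1 and Nos3, 1.39 ± 0.27) and 1 lower (S1pr1, -0.50 ± 0.18). Of 7 lymphatic genes 3 were tested and 1, Mmrn1, was lower. The calls of Sox17 and S1pr1 were lost under DESeq2 and with several single samples left out, that of Rgcc without high-fat diet 3, and those of Mmrn1 and Slc6a6 at 2000 UMIs. Lymphatic cells were part of both sums, and without them 397 genes were called. None of the 20 cartilage genes beyond the gate had enough counts to be tested, and all 6 chondrocyte gate markers were at 0 in the positive cells of the 6 samples. Markers of smooth muscle in the same sums ranged from 399 to 2882 CPM in positive and 470 to 2333 CPM in negative cells. Those of fibroblasts ranged from 553 to 1378 and 362 to 1000 CPM, and were higher in positive cells in 5 of 6 samples. The part of these other cells in the calls was not tested.

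The same contrast was run inside the arterial gate, where only control 3 and high-fat diet 3 had 5 cells of each state, with 12 and 5 negative cells. The negative cells carried capillary transcripts, with Fabp4, a fatty acid carrier, at a mean of 14212 CPM against 2279 CPM in positive cells (adjusted p = 0.82, edgeR), and the part of capillary cells or their RNA in the calls was not tested. There 9 of 308 genes were called (2.92%). Clu, a secreted chaperone (log2 fold change 3.01 ± 0.64), Cpe, a carboxypeptidase (2.71 ± 0.60), the matrix genes Bgn (1.94 ± 0.41) and Mgp (1.58 ± 0.32), Pecam1 (1.24 ± 0.34) and Apoe (1.10 ± 0.29) rose, and Emp3 held 1208 and 964 CPM in positive cells and none in negative cells. Cd36, the fatty acid transporter of capillaries, fell by 4.59 ± 0.97 and Ly6c1 by 2.07 ± 0.52. Without the sample as a block no gene was called (21 at an unadjusted p under 0.05), and DESeq2 called 2, Cd36 among them and none of the other 8 genes named here.

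The arterial cluster gave more cells, and its 426 high cells were compared with its 143 cells without Cytl1 in all 6 samples, a comparison added after the data were seen. The cells without Cytl1 numbered 6, 19 and 60 in controls 1 to 3 and 27, 24 and 7 in high-fat diet 1 to 3. Those of control 1 and high-fat diet 3 held 6000 and 7000 UMIs after thinning, so their levels rest on few counts per gene. Of 591 genes tested 53 were called (8.97%), 34 higher (5.75%) and 19 lower (3.21%) in high cells. Sfrp1 rose most. In controls 1 to 3 it went from 0 to 1066, 0 to 1709 and 56.1 to 537 CPM, and on the high-fat diet from 188 to 1037, 213 to 803 and 243 to 1907 CPM, without overlap between the states (log2 fold change 3.08 ± 0.41, adjusted p = 1.07e-07, edgeR). Ace, the angiotensin-converting enzyme, rose by 1.98 ± 0.37, the tight junction gene Cldn5 by 1.81 ± 0.33, Clu by 1.50 ± 0.19 and Bmp4 by 1.45 ± 0.30. Fhl1, Lmo2, Tmem158 and Srgn rose by 1.41 to 1.52. Gja5 and Bmx, used by the selection rule, rose by 2.91 and 1.34, although Gja5 went from 528.9 to 391 CPM in control 1.

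Vcam1 rose within the arterial cluster as well, from 0 to 1173, 517 to 1405 and 365 to 1032 CPM in the controls and from 940 to 1192, 284 to 2041 and 243 to 1450 CPM on the high-fat diet. It was higher in high cells of 6 of 6 samples (log2 fold change 1.54 ± 0.30, adjusted p = 0.000184, edgeR), with the smallest gap in high-fat diet 1. Klf2 held 1530 ± 683 CPM in cells without Cytl1 and 1523 ± 606 CPM in high cells (SD, n = 6) and was higher in 4 of 6 samples (log2 fold change 0.05 ± 0.23, adjusted p = 0.92, edgeR). Cd36 fell by 3.17 ± 0.33, from 533 to 4380 CPM down to 75.9 to 234.2 CPM. The cells without Cytl1 thus carried this capillary transcript, with the highest level in high-fat diet 3. Their Gja5 level was 0 in high-fat diet 2 and 3 and 28.1 to 529 CPM in the other samples. The part of capillary cells or their RNA in the calls of this cluster, Sfrp1, Vcam1 and Bmp4 included, was not tested. Ebf1, Lrg1, Flt1, a VEGF receptor, and Igfbp7 fell by 1.29 to 2.30, and Adgrf5, Ifi27l2a, Rdx, Sepp1 and Eng by 0.87 to 1.14.

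By list, 4 of 11 arterial genes tested were higher (Clu, Mgp, Bmp4 and Fbln5) and none lower, 1 of 5 capillary genes (Cd36) was lower, and of 5 venous genes 1 (Vcam1) was higher and 3 (Lrg1, Emcn and Il6st) were lower. The median log2 fold changes of these lists were 0.79, -1.65 and -0.77, against 0.02 over all genes tested, of which 5.75% were called higher and 3.21% lower. Of the endothelial gate's own 6 markers 5 were tested and 2 were higher, with summed levels of 3017 to 7143 CPM in cells without Cytl1 and 5176 to 6678 CPM in high cells. Smooth muscle markers summed to 737 to 4958 CPM and 491 to 3971 CPM, and fibroblast markers to 571 to 5167 CPM and 1056 to 2632 CPM, with no marker of either called. When cells with 2 or more markers of another type were left out, only 229 genes could be tested and 1 was called, with the calls of Vcam1, Clu, Mgp, Cldn5 and Cd36 lost. The calls of Eng, Emcn and Il6st were lost under DESeq2, that of Fbln5 without control 2, that of Tmem158 without control 3 and those of Adgrf5 and Rdx without high-fat diet 1. The part of the endothelial marker difference in the calls was not tested.

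**Figure D4:**
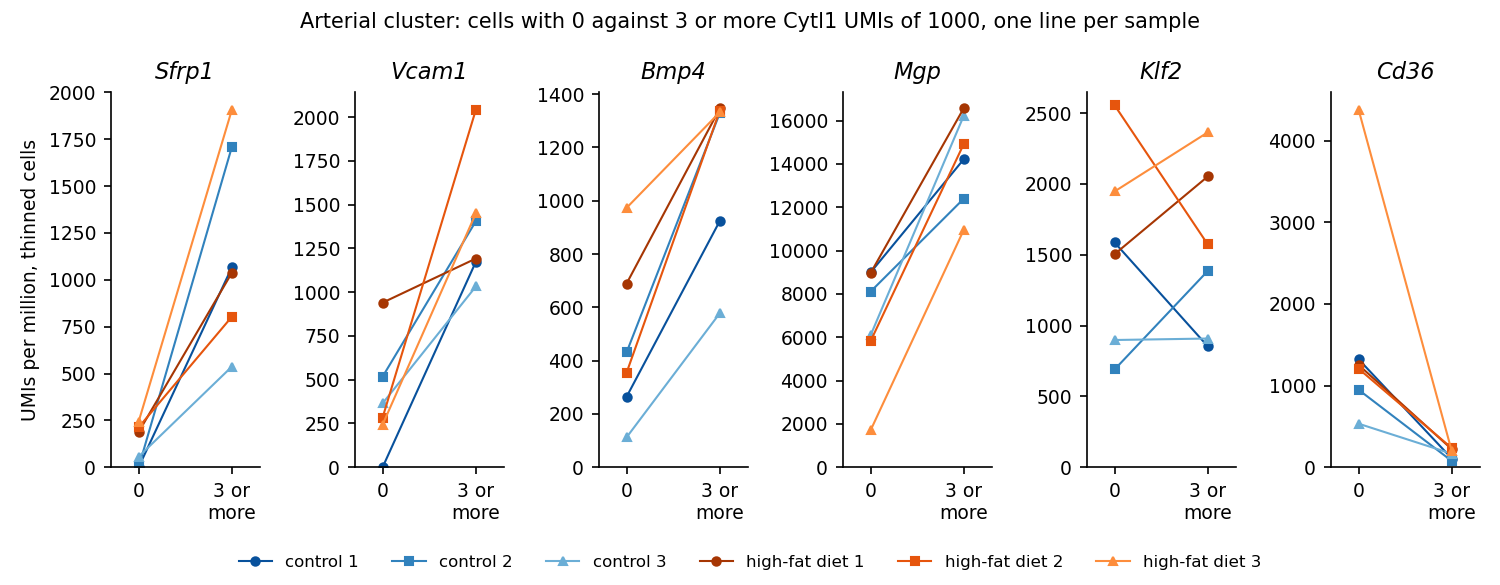
Levels of Sfrp1, Vcam1, Bmp4, Mgp, Klf2 and Cd36 (CPM of thinned counts) in cells of the arterial cluster with 0 against 3 or more Cytl1 UMIs of 1000, 1 line per sample. All 6 lines rise for Sfrp1, Vcam1, Bmp4 and Mgp, all 6 fall for Cd36, and the lines for Klf2 cross.

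A small set of fibroblasts also carried Cytl1. High cells were 2.25%, 1.37% and 0.242% of fibroblast-gated cells in the controls and 2.35%, 1.84% and 1.00% on the high-fat diet, against macrophage shares of 2.27%, 0.144% and 0.132% and of 0.363% in high-fat diet 1. In high-fat diet 2 and 3 no macrophage of 209 and 1114 was high, which allows shares of up to 1.44% and 0.269%. The share in fibroblasts was thus not above that in macrophages in control 1. In control 3 the 95% Wilson intervals overlapped (0.0822 to 0.708% against 0.0234 to 0.746%), and in high-fat diet 2 the fibroblast interval of 1.31 to 2.59% reached below the macrophage limit. Over 5 samples with enough cells (not control 3), 226 high fibroblasts were compared with 13763 without Cytl1, a comparison added after the data were seen. Of 3913 genes 289 were called (7.39%), 89 higher (2.27%) and 200 lower (5.11%).

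Wif1, a secreted Wnt inhibitor, rose by 3.04 ± 0.31 on the log2 scale in 5 of 5 samples (adjusted p = 1.03e-12, edgeR). Prg4, the lubricin of joint surfaces, went from 36.9 to 408 and from 50.9 to 353 CPM in controls 1 and 2, and from 132 to 311, 90.0 to 735 and 61.2 to 113 CPM on the high-fat diet (2.28 ± 0.28). Cracr2b, Ltbp2, Unc5b, Usp53, Smoc1, Clu and Dio2 rose by 2.01 to 2.83. Ccl11, an eosinophil chemokine, fell by 6.30 ± 0.57, and Plac8, Smpd3, Dclk1, Cxcl13, Dkk2 and Figf by 3.37 to 4.57. Emilin2, Ifi205 and Tek had no UMI in high cells of any of the 5 samples and 130, 124 and 68.2 CPM in the others. Of 20 cartilage genes 4 were tested and all 4 were called higher, against 2.27% of all genes tested. They were Comp (2.29 ± 0.43), Sox9 (1.46 ± 0.37), Epyc (1.42 ± 0.40) and Fmod (1.25 ± 0.34), with a median of 1.44 against -0.06 over all genes tested. Fmod was higher in 5 of 5 samples, Comp in 4 (it was at 0 in high cells of control 1), Sox9 in 4 (at 0 in high cells of high-fat diet 3) and Epyc in 3. Without control 2, which held most cartilage cells, none of the 4 was called and the count over all genes was 172. Under DESeq2 the calls of Sox9, Epyc and Fmod were lost as well. The 6 chondrocyte gate markers summed to 0 to 204 CPM in high and 1.15 to 37.0 CPM in other fibroblasts, and their part in the calls was not tested.

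Diet was compared over samples. In the whole endothelial gate Cytl1 held 1328, 2277 and 498 CPM in the controls and 1005, 645 and 1759 CPM on the high-fat diet, and the groups overlapped. The log2 fold change of high-fat diet over control was -0.29 ± 0.70 (SE, 95% interval -2.14 to 1.57, adjusted p = 0.93, edgeR), with 7 of 9682 genes called (0.0723%). The sign turned without control 2 (0.41) and without high-fat diet 2 (0.01). The arterial share of endothelial cells moved with the level, at 18.9%, 24.8% and 9.98% in the controls and 11.1%, 3.59% and 12.4% on the high-fat diet, and its part in the difference was not tested. A sum over the whole gate does not separate the share of arterial cells from the Cytl1 level within them, so arterial cells are also given alone.

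Within the arterial gate control 1 and high-fat diet 2 had 7 cells each, so no model was fitted, and the levels given above averaged 6047 ± 2516 CPM under control feeding against 7594 ± 1401 CPM under high-fat feeding (SD over 3 samples per diet), and the groups overlapped. In the arterial cluster, with 73 or more cells per sample, the log2 fold change was 0.39 ± 0.40 (SE, 95% interval -0.55 to 1.33, adjusted p = 0.88, edgeR). No gene of 6991 was called there (0%), with 504 at an unadjusted p under 0.05 and 8 called by DESeq2. Intervals of both fits include no change and also changes of over 2-fold, so the depth and number of samples do not settle a diet difference of that size. Without control 2 the cluster's log2 fold change was 0.91 and without control 3 it was 0.09.

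The share of thinned endothelial cells with a Cytl1 UMI was 43.2%, 31.4% and 12.2% in controls and 16.9%, 14.9% and 18.1% on the high-fat diet, means of 29.0% ± 15.6 and 16.6% ± 1.64 (SD, n = 3 each, exact two-sided permutation p = 0.4, where the smallest possible is 0.1). Control 1, whose background alone marks 44.3% of macrophages, carried the highest value, and without it the difference was -5.17 percentage points. In arterial cells the shares were 100%, 95.8% and 72.7% in controls and 88.2%, 85.7% and 93.1% on the high-fat diet, means of 89.5% ± 14.7 and 89.0% ± 3.73 (SD, n = 3 each, exact two-sided permutation p = 1).

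**Figure D5:**
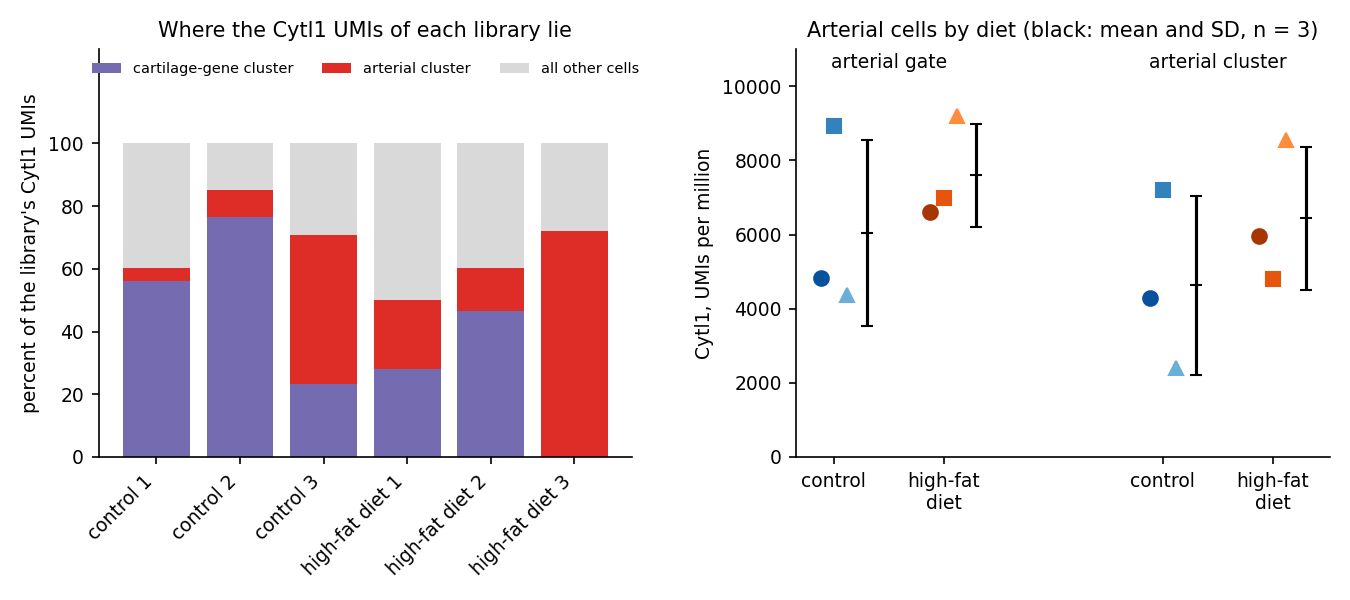
Left, percent of each library's Cytl1 UMIs in the cartilage-gene cluster, the arterial cluster and all other cells. Right, Cytl1 level (CPM) in the arterial gate and the arterial cluster by diet, 1 point per sample (circle, square and triangle for replicates 1 to 3) with mean and SD of 3 samples, where the groups overlap in both panels' cell sets.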

How the data were processed

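Digestion of the aortas used collagenase and DNase, per the labels' protocols, and cells were strained, cleared of red cells and loaded for 3′ droplet capture with version 2 gel beads. The tools named are Cell Ranger 3.0 with the genome build mm10, per the submitters' processing notes. How cells were called is not given in the sources used here. The deposited tables hold raw UMI counts per gene and cell, whole numbers for 27998 genes in the same order in all 6 samples, and barcode suffixes show 2 gel-bead wells per table.

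Cells with fewer than 300 genes or 20% or more mitochondrial counts were left out (59413 kept), and 1379 cells (2.321%) with a Scrublet score above 0.25 per well (expected rate 0.06, scanpy 1.11.5) were removed. Clusters came from 2000 variable genes, 30 principal components, 20 neighbours and Leiden at resolution 1 (igraph 0.11.9). Gates and sub-types followed fixed marker lists. Cell names are rebuilt and need not match the authors'. Cells were thinned to 1000 UMIs with a fixed seed for shares and for the comparisons of positive with negative cells.

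Counts were summed per sample, since cells are not replicates, and tested with edgeR 4.0.16 (TMM factors, robust quasi-likelihood fit, default filter on low counts) with Benjamini-Hochberg adjustment over all genes tested. Intervals of fold changes use the fit's own degrees of freedom. Shares were compared by exact permutation of samples. The fits were also run on simulated counts drawn without a sample effect, so that run does not cover differences between these libraries. Comparisons of positive with negative cells used samples with at least 5 cells of each state. Genes named are the 10 that rose and 10 that fell most among those called that averaged 20 CPM or more and moved 1 way in every sample, up to 4 members of each list with the smallest p (for cartilage, the 6 highest in chondrocytes), the 15 most like Cytl1 by Pearson's r, and Klf2 and Vcam1. One gene that this rule names in fibroblasts is not reported here. The gene, the lists and the rules were chosen with earlier results of these data known. Alternatives were DESeq2 1.42.0, other scaling, filter, gate, doublet, mitochondrial (10%) and thinning settings (2000 UMIs or none), and each sample left out. Comparisons in the arterial cluster and in fibroblasts, and the limit of 3 UMIs, were added after the data were seen. Software was Python 3.11.15 and R 4.3.3.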

Additional observations from a re-analysis of the deposited data

How the results depend on the processing

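The Cytl1 level of the arterial gate kept its size under all 11 alternatives (6345 to 7310 CPM with 1 sample left out) and so did the gap in positive share between arterial and capillary cells under its own 11 (78.6 to 82.3 percentage points with 1 sample left out and 72.6 without thinning). For the chondrocyte gate 7 alternatives were run, and with 1 of its 2 samples left out the other stood at 26928 or 37895 CPM. The diet difference in the endothelial gate turned sign without control 2 (log2 0.411), without high-fat diet 2 (0.00801) and with clusters in place of gates (0.256), ranging from -0.757 to 0.411 with 1 sample left out. The genes called by diet there numbered 7, against 15 by DESeq2, 258 without the filter, 25 with clusters, 3 at a mitochondrial limit of 10% and 4 without cells carrying markers of another type, and 0 to 143 with 1 sample left out. In the arterial cluster the counts were 0, 8 by DESeq2, 80 without the filter and 0 to 9 with 1 sample left out, and the Cytl1 difference ranged from 0.0917 to 0.910. In the arterial gate the log2 ratio of means ranged from 0.142 to 0.723. The difference in share between diets ranged from -20.7 to -5.17 percentage points in endothelial cells. In arterial cells it was -0.518 and changed sign at a mitochondrial limit of 10% (0.552), without cells carrying other markers (11.2), at 2000 UMIs (4.08), and with at least 2 (11.1) or 3 (13.6) Cytl1 UMIs, and it ranged from -8.91 to 4.72 with 1 sample left out.

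Genes called between positive and negative endothelial cells numbered 657 without the filter, 94 without cells carrying other markers, 710 at 2000 UMIs and 1159 without thinning, and 206 to 432 with 1 sample left out (206 without high-fat diet 3). In the arterial gate they numbered 2 by DESeq2, 0 without the filter (58 at an unadjusted p under 0.05) and 0 without the sample block, and the mitochondrial, gate and thinning alternatives and leaving out a sample were not run there because 1 sample would remain. In fibroblasts they numbered 147 by DESeq2, 468 without the filter, 104 without the sample block, 43 without cells carrying other markers and 172 to 363 with 1 sample left out. In the arterial cluster they numbered 1 without cells carrying other markers and 43 to 60 with 1 sample left out. The cause of these shifts was not tested, beyond fewer cells or genes where a setting removes them. Among named genes, no called gene changed sign. Klf2, which was not called, did so in endothelial cells without the filter (-0.243), without the block (-0.0314), without cells carrying other markers (-0.183), without lymphatic cells (-0.141) and without control 2 or high-fat diet 1 (-0.0986 and -0.0787, in a range of -0.0986 to 0.0833 with 1 sample left out), and in the arterial cluster at a mitochondrial limit of 10% (-0.00773) and without the same samples (-0.0951 and -0.0468, in a range of -0.0951 to 0.276). Thbd did so without the filter (-0.068).

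With the replicate number as a block, the Cytl1 difference was -0.168 in endothelial cells and 0.487 in the arterial cluster, and 0 genes were called in each. Deviations of same-numbered samples from their diet means had r = 0.0215, 0.0326 and -0.0138, and the other pairs lay between -0.0501 and 0.0134. Control 1 and control 2 were closest to the sample of the same number, and control 3 was closest to high-fat diet 1. Coefficients this small, from 3 samples per diet, do not settle whether the numbers pair the samples. Cell number limits both gates, with 7 arterial cells in control 1 and high-fat diet 2 and 8 or fewer chondrocytes in every sample but control 2.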
